A study of Mus musculus with 16 samples.

Results

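Wire-injured carotid arteries taken 1 day after injury were compared with uninjured carotid arteries for all mouse microRNAs (miRNAs) on the array, with 3 arteries in each group, 6 of the 16 arrays of the series. All 611 mouse miRNAs with a probe were considered, chosen by their mouse prefix in the array design. Every animal was a female ApoE-/- mouse of the C57BL/6 background on a western-type diet, so the control arteries also lacked apolipoprotein E, a lipid carrier whose loss makes mice prone to atherosclerosis. The day 1 mice were labelled as 8 weeks old and the uninjured mice as 6 to 8 weeks old. Injury was made by passing a wire through the carotid artery. The total RNA of an artery carried the dye Cy3 and was hybridized alone to a single-colour Agilent miRNA array. The other arrays, from days 7 (n = 3), 14 (n = 3) and 28 (n = 4) after injury, entered the model to estimate the spread, and day 28 served as a check on the slide. All day 1 arrays lay on slide 1 and all uninjured arrays on slide 2. Day 28 had 2 arrays on each slide. Injury and slide can therefore be separated only through those 4 day 28 arrays.

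miRNAs are short RNAs that guide Argonaute proteins to messenger RNAs, mostly by pairing of their seed, bases 2 to 8 from the 5′ end, and lower the output of those messengers. A hairpin precursor can yield a miRNA from each arm, and the less abundant one is marked with an asterisk in the nomenclature of this array. Wire injury strips the endothelium and stretches the media. In injured arteries platelets and leukocytes are known to adhere early, and smooth muscle cells later multiply and form a neointima. A bulk artery measures all its cells together, so that a change in the number of cells of a type and a change in RNA per cell cannot be told apart.

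The mature sequences of the miRNAs on which the comparison turned are given from RefSeq (GRCm38.p6), 5′ to 3′, with the seed in capitals. The table held a sequence for 149 of the 323 tested miRNAs. The first set holds miRNAs that were higher at day 1, and the pairs from 1 hairpin (miR-142, miR-21, miR-340) and those sharing a seed (miR-146a and miR-146b, miR-19a and miR-19b) stand together.
miR-223: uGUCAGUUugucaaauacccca
miR-142-3p: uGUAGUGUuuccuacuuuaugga
miR-142-5p: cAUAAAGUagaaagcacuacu
miR-21: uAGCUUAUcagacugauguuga
miR-21*: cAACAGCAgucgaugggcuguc
miR-340-5p: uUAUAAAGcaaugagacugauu
miR-340-3p: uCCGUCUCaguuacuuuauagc
miR-188-5p: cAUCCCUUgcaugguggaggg
miR-146a: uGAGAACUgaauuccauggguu
miR-146b: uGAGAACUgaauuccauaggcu
miR-132: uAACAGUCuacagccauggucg
miR-19a: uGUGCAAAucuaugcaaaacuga
miR-19b: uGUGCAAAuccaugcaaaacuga

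The second set holds miRNAs that were lower at day 1. miR-99a and miR-100 share a seed.
miR-214: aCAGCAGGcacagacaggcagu
miR-99a: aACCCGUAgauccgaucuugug
miR-100: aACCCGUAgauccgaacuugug
miR-193b: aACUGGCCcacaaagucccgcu
miR-28: aAGGAGCUcacagucuauugag
miR-31: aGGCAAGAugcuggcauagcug
miR-324-5p: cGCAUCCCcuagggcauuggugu

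The third set holds families with 1 seed that had members called in both directions at day 1. Members were not tested against each other. The let-7 family with miR-98 comes first, then miR-16 with miR-195 and miR-497, and then miR-148b with miR-152.
let-7a: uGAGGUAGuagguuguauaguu
let-7b: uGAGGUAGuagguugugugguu
let-7c: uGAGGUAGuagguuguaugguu
let-7d: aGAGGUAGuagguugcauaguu
let-7e: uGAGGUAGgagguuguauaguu
let-7f: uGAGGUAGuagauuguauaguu
let-7g: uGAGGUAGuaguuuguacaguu
let-7i: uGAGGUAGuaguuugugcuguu
miR-98: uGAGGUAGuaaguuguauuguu
miR-16: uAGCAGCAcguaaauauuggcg
miR-195: uAGCAGCAcagaaauauuggc
miR-497: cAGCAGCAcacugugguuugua
miR-148b: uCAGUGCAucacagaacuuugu
miR-152: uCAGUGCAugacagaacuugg

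Signals are given as scaled log2 values. On each array, signals were set against the 75th percentile of those 395 mouse probes that all 16 arrays detected, so that 0 is the level of that percentile, and -5.79 is the floor set from the lowest detected signals. A miRNA was detected on an array when at least 50% of the spots of one of its probes were well above background. The 75th percentile was 484 to 761 intensity units on the day 1 arrays and 401 to 624 on the uninjured arrays. The day 1 arrays detected 299 to 323 miRNAs and the uninjured arrays 252 to 292. Arrays of 1 group correlated across miRNAs with r from 0.977 to 0.989 at day 1 and from 0.973 to 0.996 in uninjured arteries. The number of arrays limits the precision, and that a group's arteries came from separate animals rests on the series design, which gives 3 to 4 animals per group.

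At day 1, 105 of the 323 tested miRNAs (32.5%) passed an adjusted p of 0.05 in limma, 64 higher (19.8%) and 41 lower (12.7%). Of the 64, 41 were at least 2-fold higher, and of the 41, 12 were at least 2-fold lower. The largest rise was that of the myeloid miR-223 and the largest fall that of miR-375. With slide as a fixed block, 32 miRNAs (9.91%) passed, 26 higher (8.05%) and 6 lower (1.86%). Of these, 31 (9.6%) were also called without the block in the same direction, and the other was miR-10a, named after its values were seen, with a difference of 0.41 (adjusted p = 0.108) without and 0.96 (adjusted p = 0.0154) with the block. All 105 kept their sign with the block. The median SE was 0.24 without the block and 0.37 with it, so a call can end without a smaller difference.

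The balance of higher against lower calls depended on the scaling. The median difference over all tested miRNAs was 0.24 with the scaling used here. When all mouse probes set the 75th percentile, it was -0.30, with 112 calls (34.7%), 17 higher (5.26%) and 95 lower (29.4%). When the median of the detected probes set the scale, it was -0.33, with 120 calls (37.2%), 17 higher (5.26%) and 103 lower (31.9%). Quantile normalization gave -0.12, with 95 calls (29.4%), 24 higher (7.43%) and 71 lower (22%). Without scaling it was 0.43, with 36 calls (11.1%), 34 higher (10.5%) and 2 lower (0.619%). With the slide block added, the all-probe percentile gave 24 calls (7.43%), 6 higher (1.86%) and 18 lower (5.57%). The median gave 66 (20.4%), 7 higher (2.17%) and 59 lower (18.3%). Quantile normalization gave 28 (8.67%), 9 higher (2.79%) and 19 lower (5.88%), and no scaling gave 3 (0.929%), 2 higher (0.619%) and 1 lower (0.31%). Differences below are therefore to be read beside these medians. Across the 5 scalings, each without and with the slide block, 84 of the 105 called miRNAs kept their sign in all 10 fits. Only miR-21, miR-223 and miR-375 were called in all 10. Another 10 were called in each of the 5 scalings without the block: miR-142-3p, miR-142-5p, miR-146b, miR-188-5p, miR-199b*, miR-19a, miR-21*, miR-340-3p, miR-340-5p and miR-466d-3p.

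On the day 28 arrays, the group that spans both slides, 0 of the 323 miRNAs (0%) had a slide effect after adjustment in limma, 39 at an unadjusted p under 0.05. The slide difference had a median size of 0.23. That count rested on both slide 1 arrays of day 28, since without replicate 1 it was 17 and without replicate 2 it was 9. Within slide 1, day 1 differed from day 28 in 101 miRNAs (31.3%), 62 higher at day 1 (19.2%) and 39 lower (12.1%). Within slide 2, uninjured arteries differed from day 28 in 55 (17%), 11 higher (3.41%) and 44 lower (13.6%).

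**Figure D1:**
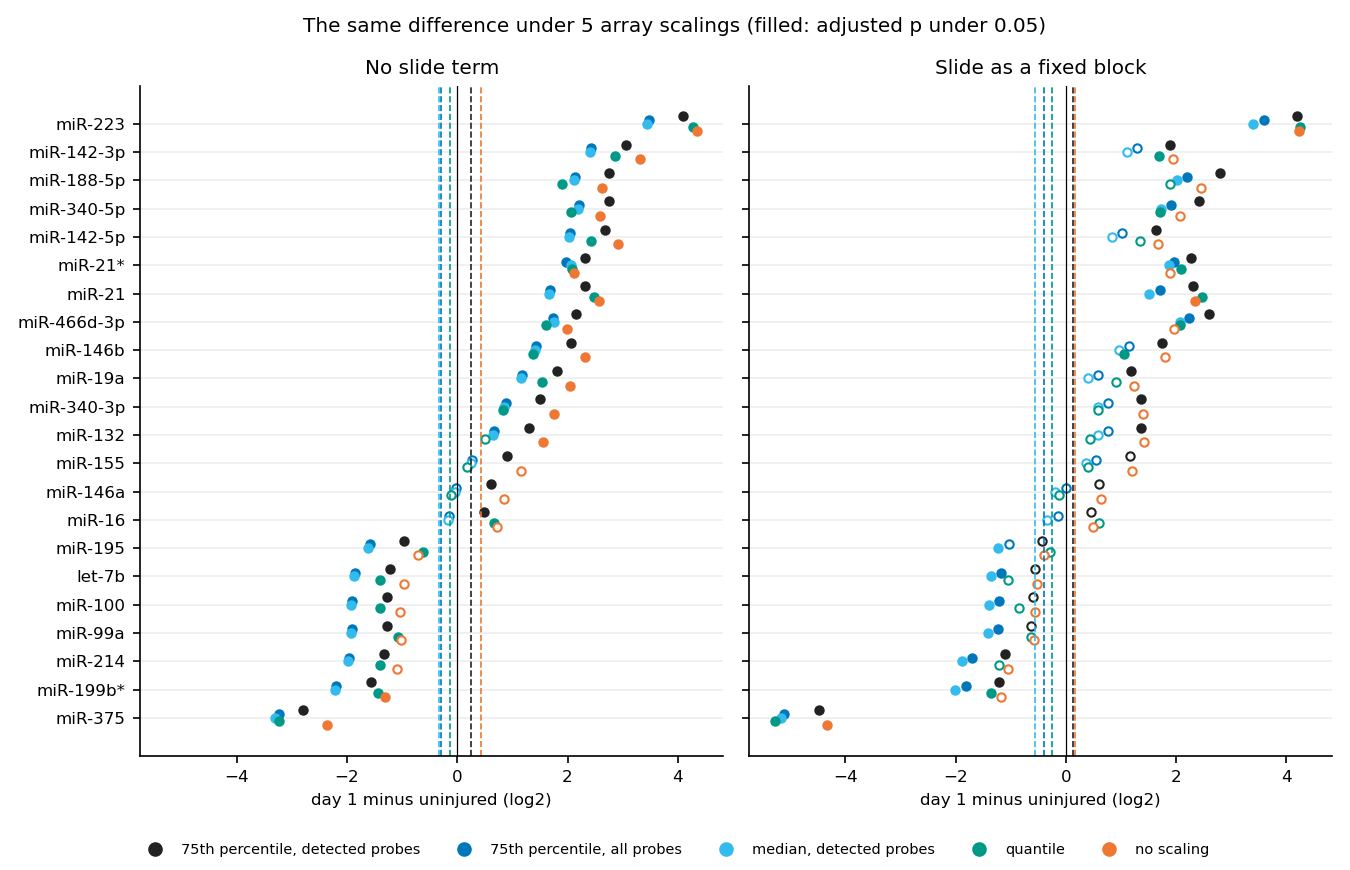
Difference between day 1 and uninjured arteries (log2, horizontal axis) for 22 miRNAs under 5 array scalings (colours), without a slide term (left) and with slide as a fixed block (right). Filled points passed an adjusted p of 0.05 in limma and dashed lines are the medians of all 323 tested miRNAs; miR-223, miR-21 and miR-375 are filled in all 10 fits, and miR-146a and miR-16 cross 0.

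Leukocyte-enriched miRNAs held the largest rise. miR-223, which is abundant in neutrophils and monocytes, lay on chromosome X (chrX:96242884-96242905, GRCm38.p6). Its signal was 4.65, 4.52 and 4.53 on the day 1 arrays and 0.47, 0.59 and 0.33 on the uninjured arrays. Every day 1 array was far above every uninjured array, and the difference was 4.10 ± 0.17 (SE, n = 3 and 3, adjusted p = 1.45e-09), or 17.2-fold. The day 28 arrays lay between the groups, at 2.83 and 2.90 on slide 1 and 2.80 and 3.10 on slide 2, with no gap between the slides. Its difference with the block was 4.19 (adjusted p = 1.45e-06), and over the 10 fits it ranged from 3.40 to 4.35.

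Both strands of the miR-142 hairpin, which is transcribed in blood cells, were higher (chr11:87756867-87756887 and chr11:87756903-87756925). miR-142-3p was 1.29, 1.01 and 0.94 on the day 1 arrays and -1.88, -1.76 and -2.32 on the uninjured arrays. miR-142-5p was -0.76, -1.18 and -1.13 on the day 1 arrays and -3.45, -3.43 and -4.21 on the uninjured arrays. The groups did not overlap for either strand, and the differences were 3.07 ± 0.37 (SE, n = 3 and 3, adjusted p = 4.75e-05) and 2.68 ± 0.37 (SE, n = 3 and 3, adjusted p = 0.000157). Each was smaller with the block, at 1.89 (adjusted p = 0.0154) and 1.63 (adjusted p = 0.0499). On the day 28 arrays miR-142-3p was 0.26 and 1.52 on slide 1 and -0.27 and -0.30 on slide 2, so that replicate 2 on slide 1 stood above the rest. Without that array the block values were 2.52 (adjusted p = 0.00103) and 2.24 (adjusted p = 0.00615). Without replicate 1 they were 1.26 (adjusted p = 0.023) and 1.02 (adjusted p = 0.142). Without replicate 3 or 4 of day 28 the block ended both calls, with adjusted p from 0.0585 to 0.152.

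The rest of the leukocyte list moved less. Of its 8 tested members (of 9 listed) 4 were higher and 0 lower without the block, where 19.8% and 12.7% of all tested miRNAs were, and 3 and 0 with it, where 8.05% and 1.86% were. Their median difference was 0.75, against 0.24 over all tested miRNAs. Under each of the other scalings miR-223, miR-142-3p and miR-142-5p were the members called higher, and under the median and the all-probe percentile 1 member was called lower, miR-342-3p. The fourth was miR-155, made in activated immune cells, at -3.07, -3.23 and -2.62 on the day 1 arrays and -4.01, -3.96 and -3.68 on the uninjured arrays. Its groups did not overlap, but the difference of 0.90 ± 0.31 (SE, n = 3 and 3, adjusted p = 0.0382) was lost with the block (1.15, adjusted p = 0.211) and under each other scaling. It also rested on single arrays (lost without day 1 replicate 1 or 3, day 14 replicate 2 or uninjured replicate 1 or 2, adjusted p up to 0.116). miR-511, a macrophage miRNA, differed by 0.59 (adjusted p = 0.264), and miR-342-3p by -0.18 (adjusted p = 0.391), which became -0.84 (adjusted p = 0.000596) with the median. miR-150, abundant in lymphocytes, was detected on 1 day 1 array and on 0 uninjured arrays. The signal summed over the list was 4.74 to 4.88 (log2) on the day 1 arrays, 1.60 to 1.66 on the uninjured arrays and 3.62 to 4.03 at day 28.

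miRNAs known to be induced in inflammation rose in most cases. Of 6 tested members (of 8 listed) 5 were higher and 0 lower (19.8% and 12.7% of all tested miRNAs), and 3 and 0 with the block (8.05% and 1.86%), with a median of 1.11. Under the other scalings 2 or 3 were higher and 0 lower. miR-146b and miR-146a are induced by NF-kB and share the seed printed above. miR-146b was -2.39, -2.96 and -3.02 on the day 1 arrays and -4.82, -5.05 and -4.70 on the uninjured arrays. miR-146a was -2.75, -3.00 and -2.55 on the day 1 arrays and -3.35, -3.57 and -3.19 on the uninjured arrays. Both were higher without overlap, miR-146b by 2.06 ± 0.18 (SE, n = 3 and 3, adjusted p = 2.81e-06) and miR-146a by 0.60 ± 0.17 (SE, n = 3 and 3, adjusted p = 0.0192). miR-146b kept its call with the block (1.75, adjusted p = 0.00158), whereas that of miR-146a ended (0.60, adjusted p = 0.244) and its sign turned under 3 of the 4 other scalings. Single arrays decided it too (lost without day 1 replicate 1 or 3 or uninjured replicate 2, adjusted p up to 0.0871). Whether the rise of the pair differed was not tested. On the day 28 arrays both were higher than at day 1, with miR-146b at -1.47 and -1.37 on slide 1 and -1.65 and -1.83 on slide 2 and miR-146a at -1.04 and -0.47 on slide 1 and -0.80 and -0.71 on slide 2.

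miR-132, induced through the factor CREB, was -2.75, -2.78 and -2.50 on the day 1 arrays and -4.09, -4.13 and -3.72 on the uninjured arrays. It was higher on every day 1 array, by 1.31 ± 0.16 (SE, n = 3 and 3, adjusted p = 5.72e-05), and by 1.37 (adjusted p = 0.00642) with the block. miR-212, transcribed with miR-132 (chr11:75173443-75173464 and chr11:75173723-75173744) and of the same seed, differed by 0.36 (adjusted p = 0.191). The call of miR-132 was lost with quantile normalization (0.51, adjusted p = 0.0728).

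miR-21, a miRNA known to rise in injured arteries and to favour the survival of smooth muscle cells, came from within the span of Vmp1 on chromosome 11 (chr11:86584120-86584141, minus strand). Its signal was 5.81, 5.41 and 5.81 on the day 1 arrays and 3.52, 3.47 and 3.07 on the uninjured arrays. The difference was 2.32 ± 0.22 (SE, n = 3 and 3, adjusted p = 4.99e-06), or 4.99-fold, and 2.30 (adjusted p = 0.00158) with the block. The other strand, miR-21*, was detected on 3 day 1 arrays and 0 uninjured arrays. miR-21* was -3.42, -3.85 and -3.12 on the day 1 arrays and -5.79, -5.79 and -5.79 on the uninjured arrays, at least 3.58-fold higher, and differed by 2.32 ± 0.23 (SE, n = 3 and 3, adjusted p = 7.69e-06). A bound is given as "at least" where no array of the dimmer group detected the miRNA. In such a bound each dim array enters with the larger of its measured signal and the dimmest signal it detected. Both strands were higher on every day 1 array than on any uninjured array, and the block value of miR-21* was 2.28 (adjusted p = 0.0022).

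Of the 9 vascular injury-associated miRNAs, a list that shares miR-21, miR-146a, miR-146b and miR-155 with the inflammation list, 6 were higher and 2 lower (19.8% and 12.7% of all tested miRNAs), and 3 and 1 with the block (8.05% and 1.86%). Under the other scalings 3 were higher and 2 lower, except without scaling (4 and 0). miR-221, which promotes proliferation of smooth muscle cells, was -1.54, -2.21 and -2.00 on the day 1 arrays and -3.04, -2.98 and -3.52 on the uninjured arrays. It rose by 1.26 ± 0.24 (SE, n = 3 and 3, adjusted p = 0.00139), without overlap, but by 0.74 (adjusted p = 0.232) with the block. miR-222, from the same transcript (chrX:19146307-19146329 and chrX:19146901-19146923, minus strand), was detected on no array of either group. miR-31 was -1.77, -2.48 and -1.97 on the day 1 arrays and -0.62, -0.98 and -1.47 on the uninjured arrays, and it fell by 1.05 ± 0.25 (SE, n = 3 and 3, adjusted p = 0.00592). Its call ended with the block (-0.88, adjusted p = 0.232). miR-214 fell as well, by 1.33 ± 0.19 (SE, n = 3 and 3, adjusted p = 0.000226).

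miR-340 was the hairpin with 2 strands called in each of the 5 scalings beside those of miR-142 and miR-21. It lies within the span of Rnf130 (chr11:50069720-50069741 for miR-340-5p). miR-340-5p was -2.54, -3.16 and -3.14 on the day 1 arrays and -5.79, -5.79 and -5.49 on the uninjured arrays, detected on 1 of the 3 uninjured arrays. The difference was 2.74 ± 0.19 (SE, n = 3 and 3, adjusted p = 3.65e-07), and 2.41 (adjusted p = 0.000355) with the block. miR-340-3p was -3.09, -3.20 and -3.36 on the day 1 arrays and -4.68, -4.85 and -4.64 on the uninjured arrays. It was higher by 1.51 ± 0.13 (SE, n = 3 and 3, adjusted p = 2.53e-06), and by 1.36 (adjusted p = 0.00134) with the block. The day 28 arrays lay between the groups for both strands, with miR-340-5p at -4.02 and -4.03 on slide 1 and -4.20 and -4.52 on slide 2.

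miR-188-5p lies on chromosome X within the span of Clcn5 (chrX:7248031-7248051, minus strand), in a cluster with miR-362 and miR-532. Its signal was -2.14, -2.74 and -2.19 on the day 1 arrays and -5.79, -5.75 and -3.80 on the uninjured arrays. Replicate 3 of the uninjured group was well above the other 2, though still below every day 1 array, and the miRNA was detected on 1 uninjured array. It was higher by 2.76 ± 0.43 (SE, n = 3 and 3, adjusted p = 0.000371), and by 2.79 (adjusted p = 0.0301) with the block, a call that ended without day 28 replicate 2, 3 or 4 (adjusted p up to 0.118). Of its neighbours, miR-362-5p was -4.05, -4.28 and -4.46 on the day 1 arrays and -5.74, -5.62 and -5.21 on the uninjured arrays, without overlap, and rose by 1.26 ± 0.16 (SE, n = 3 and 3, adjusted p = 6.58e-05). miR-362-3p rose by 0.59 ± 0.14 (SE, n = 3 and 3, adjusted p = 0.00468), a difference whose sign turned with the all-probe percentile and the median. miR-532-5p and miR-532-3p differed by 0.26 (adjusted p = 0.189) and 0.46 (adjusted p = 0.0572).

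**Figure D2:**
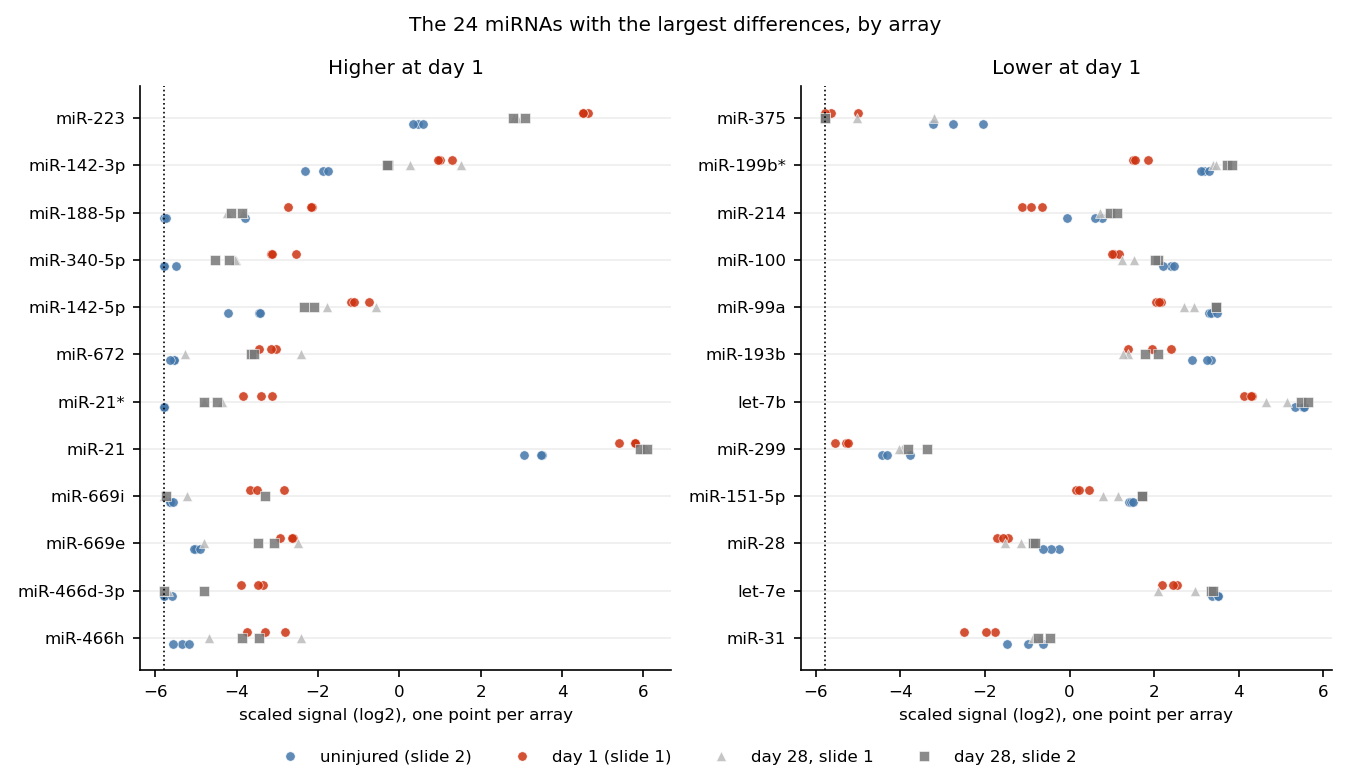
Scaled signal (log2, horizontal axis) on each array for the 12 miRNAs with the largest rise (left) and the 12 with the largest fall (right) among those called without overlap between day 1 (red) and uninjured arrays (blue). Grey triangles and squares are day 28 arrays on slide 1 and slide 2 and the dotted line is the floor (-5.79); day 28 lies between the groups for miR-223 and above all day 1 arrays for miR-21.

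In the strand pairs, 60 hairpins had both strands tested. Both were called higher for 5 (miR-21, miR-142, miR-340, miR-29b and miR-362) and both lower for 3 (miR-30a, miR-140 and miR-299). They were called in opposite directions for 3 (let-7i, miR-30b and miR-154). For 19 hairpins 1 strand was called and for 30 none, and 39 of the 60 pairs had the same sign. Over all tested miRNAs 19.8% were called higher and 12.7% lower, and the median difference was 0.24. Whether the strands of a hairpin share a sign more often than unrelated miRNAs was not tested. let-7i was 3.50, 3.62 and 3.66 on the day 1 arrays and 4.28, 4.36 and 4.45 on the uninjured arrays, and it fell by 0.77 ± 0.19 (SE, n = 3 and 3, adjusted p = 0.00851). let-7i* was detected on 3 day 1 arrays and on 0 uninjured arrays. It was at least 1.22-fold higher, by a fitted 0.74 ± 0.12 (SE, n = 3 and 3, adjusted p = 0.000393), from signals just above the floor. miR-30b differed by 0.48 ± 0.17 (SE, n = 3 and 3, adjusted p = 0.0421) and miR-30b* by -0.88 ± 0.18 (SE, n = 3 and 3, adjusted p = 0.00223). miR-154 differed by -0.80 ± 0.22 (SE, n = 3 and 3, adjusted p = 0.0149) and miR-154* by 1.17 ± 0.39 (SE, n = 3 and 3, adjusted p = 0.0373). With the block let-7i* alone of these 6 kept its call (0.73, adjusted p = 0.0301), and it lost that without day 28 replicate 1, 2, 3 or 4 (adjusted p up to 0.118). The groups overlapped for miR-154*. Single arrays decided the calls of miR-30b (lost without day 1 replicate 1, 2 or 3, day 7 replicate 2, day 28 replicate 3, day 14 replicate 2 or uninjured replicate 2 or 3, adjusted p up to 0.143), miR-154 (lost without day 1 replicate 3 or uninjured replicate 3, adjusted p up to 0.0613) and miR-154* (lost without day 1 replicate 1 or 2, day 14 replicate 2 or uninjured replicate 1 or 2, adjusted p up to 0.153). For let-7i* (with normexp background), miR-30b and miR-154* the sign itself turned under other processing, as given at the end.

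The cluster of miR-17 and its paralogs, which promote proliferation, gave 5 higher and 0 lower of 9 tested members (of 13 listed), against 19.8% and 12.7% of all tested miRNAs. With the block 3 were higher and 0 lower (8.05% and 1.86% of all). Their median was 0.84. All 9 differences were positive, and the median of all tested miRNAs was 0.24. miR-19a was -0.95, -1.18 and -1.08 on the day 1 arrays and -2.66, -2.77 and -3.19 on the uninjured arrays. It was higher by 1.80 ± 0.22 (SE, n = 3 and 3, adjusted p = 4.71e-05), and by 1.18 (adjusted p = 0.0154) with the block. miR-19b, of the same seed, was 2.51, 2.43 and 2.54 on the day 1 arrays and 1.45, 1.29 and 1.25 on the uninjured arrays. It was higher by 1.16 ± 0.14 (SE, n = 3 and 3, adjusted p = 4.71e-05), and by 0.92 (adjusted p = 0.0154) with the block. miR-18a rose by 0.98 ± 0.18 (SE, n = 3 and 3, adjusted p = 0.00101), miR-93 by 0.88 ± 0.17 (SE, n = 3 and 3, adjusted p = 0.00139) and miR-20b by 0.84 ± 0.26 (SE, n = 3 and 3, adjusted p = 0.0254). From the cluster of miR-19a on chromosome 14, miR-20a differed by 0.35 (adjusted p = 0.189). From the cluster of miR-93, miR-25 and miR-106b each differed by 0.16. Under quantile normalization 4 were higher and without scaling 2. The call of miR-20b rested on single arrays (lost without day 1 replicate 1, 2 or 3 or uninjured replicate 2 or 3, adjusted p up to 0.0628). The block calls ended without day 28 replicate 3 (adjusted p up to 0.0671) for miR-19a, without day 28 replicate 3 (adjusted p up to 0.0671) for miR-19b and without day 28 replicate 1, 3 or 4 (adjusted p up to 0.0788) for miR-18a. With the median or the all-probe percentile 1 member was called, miR-19a.

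miR-375 had the largest fall. This miRNA is best known from pancreatic islets and other endocrine cells. Its signal was -5.65, -5.01 and -5.79 on the day 1 arrays and -2.06, -2.75 and -3.22 on the uninjured arrays. The groups did not overlap, and the difference was -2.81 ± 0.56 (SE, n = 3 and 3, adjusted p = 0.00198). It was detected on 1 of the 3 day 1 arrays, so no fold is given. The day 28 arrays were -5.03 and -3.20 on slide 1 and -5.79 and -5.79 on slide 2, so replicate 2 lay among the uninjured values and the rest among the day 1 values. The block value of -4.47 (adjusted p = 0.00158) became -3.54 (adjusted p = 0.00346) without that array. Of the epithelial and endocrine list 4 of 8 were tested, and miR-375 was the member called. miR-200b, miR-200c and miR-141 differed by 0.01, -0.03 and 0.53 (adjusted p = 1, 1 and 0.636). With the block these members differed by -2.07, -1.18 and -1.58 (adjusted p = 0.322, 0.636 and 0.438), and none was called. The signal summed over that list was -2.50 to -2.28 (log2) at day 1 and -2.04 to -1.25 in uninjured arteries. At day 28 it was -2.60 to 1.12, so at least 1 day 28 array lay above every uninjured array. That list's part in the fall of miR-375 was not tested.

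miR-199 and miR-214, miRNAs of mesenchymal cells, gave 3 lower and 0 higher of 5 tested members (12.7% and 19.8% of all tested miRNAs), and 2 and 0 with the block (1.86% and 8.05%). miR-199b* was 1.49, 1.54 and 1.87 on the day 1 arrays and 3.18, 3.11 and 3.30 on the uninjured arrays. Every day 1 array was below every uninjured array, and the fall was 1.56 ± 0.15 (SE, n = 3 and 3, adjusted p = 4.99e-06), or 2.95-fold. With the block it was -1.22 (adjusted p = 0.0022). miR-214, within the span of Dnm3 (chr1:162223438-162223459), was -0.66, -1.13 and -0.91 on the day 1 arrays and 0.76, 0.60 and -0.05 on the uninjured arrays. Its groups did not overlap, and the block value was -1.10 (adjusted p = 0.0416). Leaving out any 1 of the 4 day 28 arrays ended the block call of miR-214 (adjusted p from 0.0669 to 0.132) and none ended that of miR-199b*. miR-199a-3p fell by 0.72 ± 0.13 (SE, n = 3 and 3, adjusted p = 0.00101). miR-214*, from the other arm of the miR-214 hairpin, differed by 0.69 (adjusted p = 0.298). At day 28 miR-199b*, at 3.39 and 3.47 on slide 1 and 3.72 and 3.84 on slide 2, lay above every uninjured array. miR-214, at 0.90 and 0.72 on slide 1 and 0.95 and 1.13 on slide 2, lay near or above the highest of them.

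miR-99a, miR-100, miR-193b, miR-151-5p and miR-28 were among the 12 largest falls. miR-99a and miR-100 repress mTOR and share the seed shown above. miR-100 was 1.05, 1.16 and 1.00 on the day 1 arrays and 2.39, 2.21 and 2.47 on the uninjured arrays. miR-99a was 2.05, 2.16 and 2.10 on the day 1 arrays and 3.29, 3.35 and 3.49 on the uninjured arrays. Of the 5 tested members of the miR-99, miR-100 and miR-125 families 3 were lower and 0 higher (12.7% and 19.8% of all tested miRNAs). The member lower beside miR-99a and miR-100 was miR-125a-5p (-0.41, adjusted p = 0.0282), a call that ended with the block (-0.34, adjusted p = 0.33). Single arrays decided it too (lost without day 1 replicate 2 or 3, day 14 replicate 3 or uninjured replicate 1, adjusted p up to 0.133). miR-100 and miR-99a fell by 1.28 ± 0.20 (SE, n = 3 and 3, adjusted p = 0.000359) and 1.27 ± 0.19 (SE, n = 3 and 3, adjusted p = 0.000311), and the groups overlapped for neither. With the block the differences were -0.61 (adjusted p = 0.103) and -0.63 (adjusted p = 0.0924), and on the day 28 arrays both were higher on slide 2, by 0.68 and 0.64. How much of these falls lies with the slide cannot be told apart beyond the block values. miR-99b, of the same seed, differed by -0.30 (adjusted p = 0.189). miR-193b, known from fat and muscle, fell by 1.26 ± 0.26 (SE, n = 3 and 3, adjusted p = 0.00229) with a block value of -0.66 (adjusted p = 0.304). Its day 1 arrays ranged from 1.39 to 2.40. miR-151-5p fell by 1.16 ± 0.21 (SE, n = 3 and 3, adjusted p = 0.000993) and miR-28, within the span of Lpp, by 1.15 ± 0.17 (SE, n = 3 and 3, adjusted p = 0.000307). Their block values were -0.42 (adjusted p = 0.244) and -0.65 (adjusted p = 0.0924). miR-324-5p was -1.94, -2.00 and -1.92 on the day 1 arrays and -1.07, -1.01 and -1.19 on the uninjured arrays. Its fall of 0.87 ± 0.11 (SE, n = 3 and 3, adjusted p = 4.9e-05) stood beside a narrow spread in both groups. It was -0.69 (adjusted p = 0.0154) with the block, a call that ended without day 28 replicate 3 or 4 (adjusted p up to 0.0788).

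**Figure D3:**
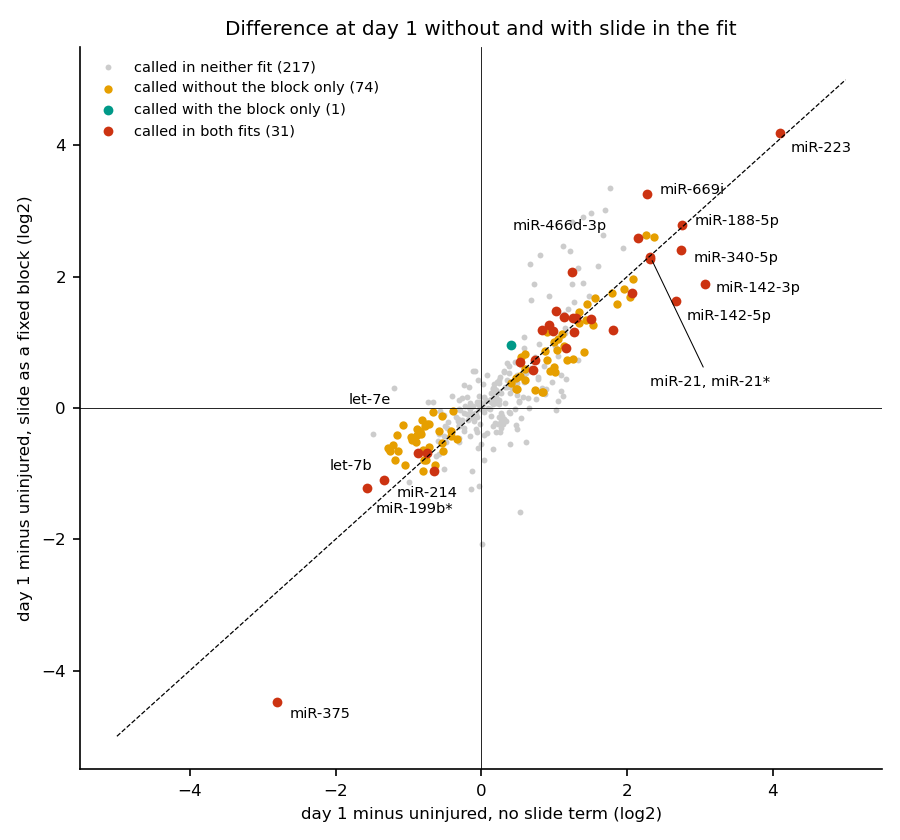
Difference between day 1 and uninjured arteries (log2) without a slide term (horizontal axis) and with slide as a fixed block (vertical axis) for the 323 tested miRNAs, 1 point each; the dashed line marks equal values. The 31 red points were called in both fits and the 74 orange points without the block only; let-7b and let-7e lie nearer 0 with the block, whereas miR-223, miR-21 and miR-188-5p lie on the line.

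The calls of the let-7 miRNAs, which are known to restrain proliferation, divided by member although all 9 share the seed shown above. let-7b, let-7c, let-7d, let-7e and let-7i fell and miR-98 rose, whereas let-7a, let-7f and let-7g did not pass the test. let-7b was 4.14, 4.32 and 4.28 on the day 1 arrays and 5.34, 5.51 and 5.54 on the uninjured arrays. It fell by 1.22 ± 0.21 (SE, n = 3 and 3, adjusted p = 0.000672), with no overlap. let-7e was 2.54, 2.45 and 2.19 on the day 1 arrays and 3.38, 3.52 and 3.51 on the uninjured arrays, and it fell by 1.08 ± 0.26 (SE, n = 3 and 3, adjusted p = 0.00598). let-7c fell by 0.88 ± 0.17 (SE, n = 3 and 3, adjusted p = 0.00177) and let-7d by 0.72 ± 0.17 (SE, n = 3 and 3, adjusted p = 0.0053). let-7a, among the 10 brightest miRNAs of the uninjured arteries as are let-7b, let-7c and let-7i, was 4.34, 4.22 and 4.15 on the day 1 arrays and 4.38, 4.36 and 4.44 on the uninjured arrays, and its groups did not overlap either. Its difference was -0.15 (adjusted p = 0.364), and that of let-7f was 0.20 (adjusted p = 0.27). miR-98 was -1.30, -1.39 and -1.73 on the day 1 arrays and -2.11, -2.10 and -1.79 on the uninjured arrays and rose by 0.53 ± 0.18 (SE, n = 3 and 3, adjusted p = 0.0396), a call that rested on single arrays (lost without day 1 replicate 1 or 2, day 14 replicate 2 or uninjured replicate 1 or 2, adjusted p up to 0.129).

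Under the median and the all-probe percentile 7 of the 9 were lower and 0 higher, when 31.9% and 29.4% of all tested miRNAs were lower. Under quantile normalization it was 5 and 0, when 22% were lower, and without scaling 0 and 0. With slide as a block none of the 9 was called (0 of 9, against 9.91% over all), and the range of their differences narrowed to -0.57 for let-7b and 0.49 for miR-98. On the day 28 arrays the members that fell were higher on slide 2 than on slide 1, by 0.47 for let-7c up to 0.83 for let-7e, while let-7a, let-7f, let-7g and miR-98 differed by -0.04 to 0.23. The differences followed the base composition of the mature sequence. miR-98 and let-7f hold 31.8% G and C, let-7a and let-7g 36.4%, let-7c, let-7d, let-7e and let-7i 40.9%, and let-7b 45.5%. Across these 9 miRNAs, which share arrays and can cross-hybridize, the content of G and C correlated with the day 1 difference with r = -0.97 (Spearman rho = -0.95). It correlated with the slide difference at day 28 with r = 0.89 (rho = 0.90) and with the block value, the sum of both, with r = -0.97 (rho = -0.95). Over 50 members of 10 families with a sequence, of 54 tested, the first of these was r = -0.24 (rho = -0.26) and the slide difference r = 0.11 (rho = 0.06). Within the miR-15 and miR-16 family (n = 7) the first was r = 0.26 (rho = 0.26). Within the miR-17 cluster and paralogs (n = 9) it was r = -0.56 (rho = -0.52), with r = -0.63 (rho = -0.67) for the block value. The part of base composition and slide in the let-7 differences was not tested.

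**Figure D4:**
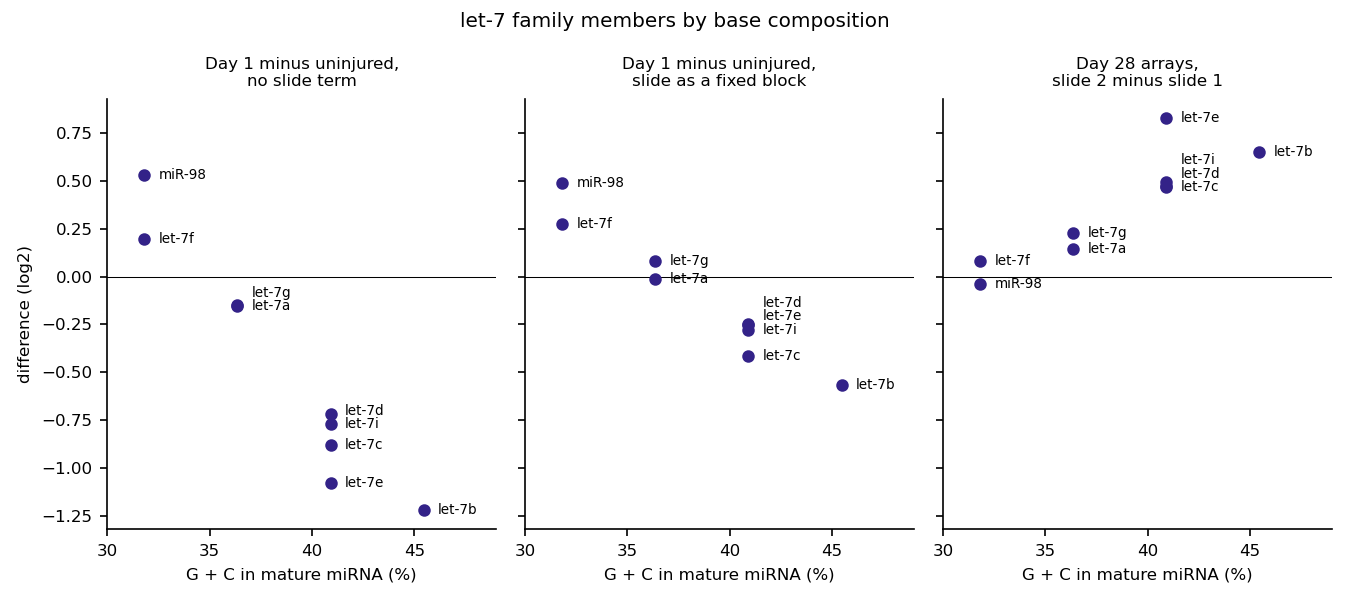
Difference (log2, vertical axis) of the 9 let-7 family members against the percent of G and C in the mature sequence (horizontal axis), for day 1 minus uninjured without a slide term, with slide as a fixed block, and for slide 2 minus slide 1 on the day 28 arrays. Members with 31.8% lie above 0 at day 1 and let-7b, with 45.5%, lies lowest at -1.22, and the order is turned in the slide difference.

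Calls divided in other families with 1 seed too. Of the 19 seeds shared by at least 2 tested miRNAs with a sequence, 3 had members called in both directions, 6 only higher, 5 only lower and 5 none. miR-16, which arrests the cell cycle, was 2.39, 2.32 and 2.49 on the day 1 arrays and 2.09, 1.98 and 1.68 on the uninjured arrays. It rose by 0.48 ± 0.15 (SE, n = 3 and 3, adjusted p = 0.026), though its sign turned with the median and the all-probe percentile, and single arrays decided the call (lost without day 1 replicate 1 or 3 or uninjured replicate 2 or 3, adjusted p up to 0.0795). miR-195 was 2.22, 2.22 and 2.34 on the day 1 arrays and 3.43, 3.25 and 2.99 on the uninjured arrays, and it fell by 0.96 ± 0.18 (SE, n = 3 and 3, adjusted p = 0.00124). miR-497, transcribed with miR-195 (chr11:70234730-70234751 and chr11:70235062-70235082), fell by 0.95 ± 0.17 (SE, n = 3 and 3, adjusted p = 0.000993). Both miR-195 and miR-497 lost their call with the block (-0.43 and -0.48, adjusted p = 0.264 and 0.229). miR-503, of the same family with a seed that differs from theirs, rose by 0.93 ± 0.16 (SE, n = 3 and 3, adjusted p = 0.000723) and by 1.26 (adjusted p = 0.00464) with the block. Of the 10 fits miR-503 was called in these 2 only, so under no other scaling. It was detected on 1 of the 3 uninjured arrays. Of the miR-26 family 0 of 2 were called and of the miR-34 family 1 of 5 (miR-34b-3p, higher by 1.46, adjusted p = 0.0246), against 32.5% of all tested miRNAs. The call of miR-34b-3p ended with the block (1.58, adjusted p = 0.232) and rested on single arrays (lost without day 1 replicate 1 or 2 or uninjured replicate 1 or 2, adjusted p up to 0.0939). The miR-15 and miR-16 family as listed gave 2 higher and 2 lower of 7, against 19.8% and 12.7% of all tested miRNAs.

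In the third such seed miR-148b rose by 0.74 ± 0.16 (SE, n = 3 and 3, adjusted p = 0.00287), a call that ended with the block (0.28, adjusted p = 0.4). The call of miR-148b was not checked with single arrays left out. miR-152 fell by 0.74 ± 0.12 (SE, n = 3 and 3, adjusted p = 0.000395). miR-152, within the span of Copz2 (chr11:96850439-96850459), was 0.04, -0.05 and 0.05 on the day 1 arrays and 0.92, 0.69 and 0.65 on the uninjured arrays, and its block value was -0.68 (adjusted p = 0.0416). That call ended without day 28 replicate 2, 3 or 4 (adjusted p up to 0.185). Of the miR-29 family, which represses collagens, miR-29b rose by 0.94 ± 0.18 (SE, n = 3 and 3, adjusted p = 0.00163) and its other strand miR-29b* by 1.28 ± 0.19 (SE, n = 3 and 3, adjusted p = 0.000307). With the block they differed by 0.56 (adjusted p = 0.243) and 1.15 (adjusted p = 0.0416), the latter lost without day 28 replicate 1, 3 or 4 (adjusted p up to 0.123). miR-29a and miR-29c differed by -0.26 and 0.00 (adjusted p = 0.189 and 1). In the miR-30 family miR-30a fell by 0.83 ± 0.18 (SE, n = 3 and 3, adjusted p = 0.00301) without the block and differed by -0.39 (adjusted p = 0.34) with it, miR-30b rose as given above, and miR-30c, miR-30d and miR-30e did not pass. Of the miR-181 family 3 of 4 fell (12.7% of all tested miRNAs did), miR-181b by 0.80 ± 0.22 (SE, n = 3 and 3, adjusted p = 0.0147), miR-181c by 0.78 ± 0.15 (SE, n = 3 and 3, adjusted p = 0.00151) and miR-181d by 0.53 ± 0.17 (SE, n = 3 and 3, adjusted p = 0.0332), and none was called with the block. Single arrays decided miR-181b (lost without day 1 replicate 1 or uninjured replicate 1 or 2, adjusted p up to 0.0521) and miR-181d (lost without day 1 replicate 1 or 3 or uninjured replicate 1, 2 or 3, adjusted p up to 0.103). miR-24 and miR-27a fell by 0.58 ± 0.14 (SE, n = 3 and 3, adjusted p = 0.00592) and 0.41 ± 0.15 (SE, n = 3 and 3, adjusted p = 0.0474), 2 of the 5 tested in their clusters (12.7% of all tested miRNAs fell). The call of miR-27a was lost without any 1 of 14 of the 16 arrays, adjusted p up to 0.243. Both calls ended with the block (-0.35 and -0.43, adjusted p = 0.322 and 0.318). Under the median and the all-probe percentile 5 of the 5 were lower, when 31.9% and 29.4% of all tested miRNAs were. It was 1 under quantile normalization and 0 without scaling, when 22% and 0.619% were. miR-210, induced in hypoxia, was -0.63, -0.78 and 0.04 on the day 1 arrays and 0.40, 0.60 and 0.15 on the uninjured arrays. It fell by 0.84 ± 0.22 (SE, n = 3 and 3, adjusted p = 0.0128), and the block value was -0.34 (adjusted p = 0.58). Single arrays decided that call (lost without day 1 replicate 1 or 2 or uninjured replicate 2, adjusted p up to 0.0628).

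**Figure D5:**
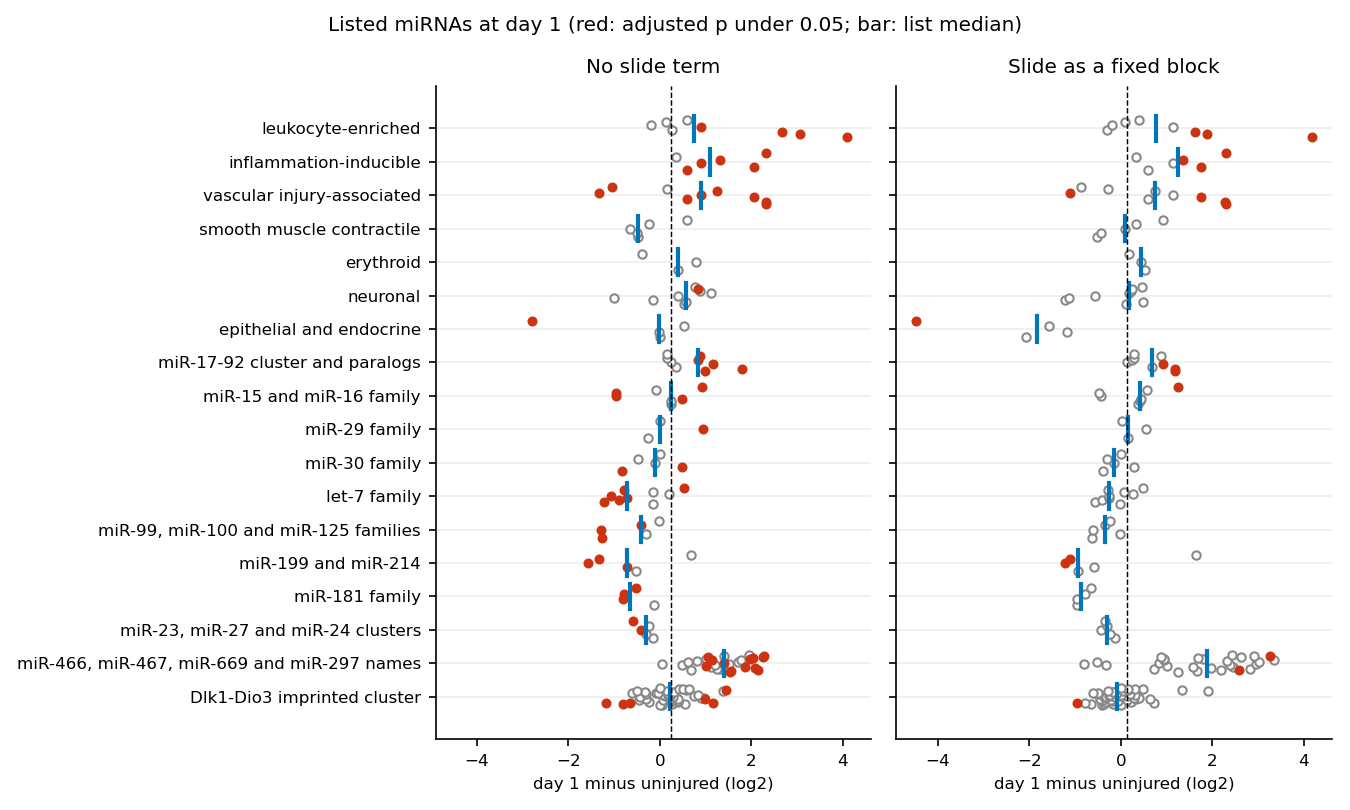
Difference between day 1 and uninjured arteries (log2, horizontal axis) for the tested members of 18 lists, without a slide term (left) and with slide as a fixed block (right). Red points passed an adjusted p of 0.05 in limma. Blue bars are list medians and the dashed lines the median of all 323 tested miRNAs (0.24 and 0.14). The let-7 members that are red on the left move towards 0 with the block. Of the miR-466, miR-467, miR-669 and miR-297 names 13 members are red on the left and 2 on the right, with list medians of 1.40 and 1.89.

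miRNAs named miR-466, miR-467, miR-669 or miR-297, many of them from a repeated cluster in an intron of Sfmbt2, formed a group that was listed after the values were seen. Of 28 tested (of 39 with a probe) 13 were higher and 0 lower, against 19.8% and 12.7% of all tested miRNAs. With the block 2 were higher and 0 lower, a share near the 8.05% of all called higher there. The median of the 28 with the block was 1.89. Under the other scalings 2 to 7 were higher and 0 lower. Without the block their median was 1.40. Of the 28, 27 did not overlap between the groups, against 32.2% of all tested miRNAs that were higher without overlap and 15.2% that were lower. Of the 39 with a probe, 29 were detected on any day 1 array and 19 on any uninjured array. Members that no uninjured array detected, miR-466d-3p and miR-669i among them, passed the filter through other groups. Their uninjured signals lay near the floor, so a fall could hardly appear and the lack of overlap was largely set in advance. miR-466d-3p was -3.37, -3.47 and -3.90 on the day 1 arrays and -5.79, -5.79 and -5.60 on the uninjured arrays, at least 3.29-fold higher. It differed by 2.15 ± 0.24 (SE, n = 3 and 3, adjusted p = 2.65e-05), and by 2.59 (adjusted p = 0.00114) with the block. miR-669i was -2.85, -3.67 and -3.50 on the day 1 arrays and -5.65, -5.64 and -5.57 on the uninjured arrays, at least 3.86-fold higher. It differed by 2.28 ± 0.59 (SE, n = 3 and 3, adjusted p = 0.00979), and by 3.26 (adjusted p = 0.0416) with the block. Leaving out day 28 replicates 1, 2 or 4 ended the block call of miR-669i, and without replicate 4 its value was 2.05 (adjusted p = 0.185).

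The SE of the 28 differences ranged from 0.23 for miR-466l to 1.06 for miR-467e*, against a median of 0.24 over all tested miRNAs. miR-669e was -2.61, -2.93 and -2.63 on the day 1 arrays and -5.01, -5.06 and -4.90 on the uninjured arrays, and at day 28 it was -2.48 and -4.82 on slide 1 and -3.48 and -3.07 on slide 2. It rose by 2.26 ± 0.67 (SE, n = 3 and 3, adjusted p = 0.0215), with 2.64 (adjusted p = 0.195) in the block. This call rested on single arrays (lost without day 1 replicate 1 or uninjured replicate 1 or 2, adjusted p up to 0.0591). miR-466h was -3.75, -2.80 and -3.31 on the day 1 arrays and -5.35, -5.56 and -5.18 on the uninjured arrays, and -2.42 and -4.69 on slide 1 and -3.46 and -3.87 on slide 2 at day 28. It rose by 2.08 ± 0.73 (SE, n = 3 and 3, adjusted p = 0.0433), a call lost without any 1 of 10 of the 16 arrays, adjusted p up to 0.135. For both, day 28 replicate 1 lay above every day 1 array and replicate 2, on the same slide, near the uninjured arrays. miR-672, outside these names, was -3.03, -3.45 and -3.16 on the day 1 arrays and -5.54, -5.55 and -5.64 on the uninjured arrays and showed the same spread, at -2.42 and -5.28 on slide 1 and -3.64 and -3.59 on slide 2. It was at least 4.26-fold higher, by 2.36 ± 0.70 (SE, n = 3 and 3, adjusted p = 0.0215), with 2.60 (adjusted p = 0.229) in the block, a call lost without day 1 replicate 1 or uninjured replicate 2, adjusted p up to 0.0615. Sequences were at hand for few of the miR-466, miR-467, miR-669 and miR-297 names. miR-466j holds GU repeats, whereas miR-467f and miR-467g hold CA repeats. Between members of similar sequence, signal from one cannot be told apart from cross-hybridization of another.

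Detection changed in 1 direction. Of all 611 mouse miRNAs 17 were detected on all 3 day 1 arrays and on no uninjured array, and 0 the reverse. At the same time 239 were detected on all 6 arrays and 274 on none of them. The 17 were let-7i*, miR-141, miR-16*, miR-1906, miR-21*, miR-291b-5p, miR-335-3p, miR-466d-3p, miR-466j, miR-466l, miR-467a, miR-467c, miR-669b, miR-669i, miR-672, miR-696 and miR-872*. Among them miR-141, miR-16* and miR-467a did not pass in limma (adjusted p = 0.636, 0.0753 and 0.264), and the signals of the groups overlapped for miR-141. The day 1 arrays also detected more miRNAs in all, as given above. The part of this in the 17 was not tested. Counting a miRNA as detected with any spot, or only with all spots, above background gave 21 and 18.

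Markers of the vessel wall were present in both groups. miR-143, of contractile smooth muscle, was 1.81 ± 0.42 (SD) at day 1 and 2.30 ± 0.48 (SD) in uninjured arteries. It differed by -0.48 ± 0.23 (SE, n = 3 and 3, adjusted p = 0.121). miR-145 differed by -0.51 (adjusted p = 0.178), and 0 of the 5 tested members of that list were called in either direction. miR-126-3p, of the endothelium, was 3.13 ± 0.27 (SD) at day 1 and 3.33 ± 0.05 (SD) in uninjured arteries, and differed by -0.20 ± 0.16 (SE, n = 3 and 3, adjusted p = 0.351). All 3 were called lower with the median and the all-probe percentile, and miR-145 with quantile normalization too. miR-451 and miR-144 of red cells differed by 0.39 and 0.78 (adjusted p = 0.466 and 0.199), and the sum over the erythroid list was 4.79 to 5.98 at day 1 and 4.02 to 5.42 in uninjured arteries. Of the neuronal list 1 of 9 tested was higher (miR-219, by 0.84 ± 0.17 (SE, n = 3 and 3, adjusted p = 0.00235)). miR-219 was not called with the block, with 0.24 (adjusted p = 0.432). Of the striated muscle list 0 of 4 were called, of the liver list 0 of 2, and of the adipose list 1 of 5 (miR-193b, lower). Over all tested miRNAs 19.8% were higher and 12.7% lower. Under the median 1 of the striated muscle, 1 of the liver and 4 of the adipose list were lower, when 31.9% of all tested miRNAs were. Under the all-probe percentile it was 0, 1 and 2, when 29.4% were, and under quantile normalization also 0, 1 and 2, when 22% were.

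In the imprinted Dlk1-Dio3 cluster 47 of 66 listed miRNAs were tested, with 3 higher and 3 lower (19.8% and 12.7% of all tested miRNAs) and a median of 0.22. With the block 0 were higher and 1 lower (8.05% and 1.86% of all tested miRNAs). The split turned with the scaling. It was 0 higher and 10, 9 and 8 lower under the all-probe percentile, the median and quantile normalization. Of all tested miRNAs 29.4%, 31.9% and 22% were lower there. Without scaling it was 1 higher and 0 lower, when 10.5% and 0.619% of all tested miRNAs were. miR-494, which rose by 1.44 ± 0.34 (SE, n = 3 and 3, adjusted p = 0.00538), was -2.07, -2.49 and -2.00 on the day 1 arrays and -3.94, -3.95 and -2.99 on the uninjured arrays. miR-376a rose by 1.00 ± 0.34 (SE, n = 3 and 3, adjusted p = 0.0396) with overlapping groups, a call lost without day 1 replicate 1 or 2, day 7 replicate 2 or 3, day 14 replicate 2 or uninjured replicate 1 or 2, adjusted p up to 0.165. miR-299 fell by 1.18 ± 0.19 (SE, n = 3 and 3, adjusted p = 0.000485) and miR-299* by 0.65 ± 0.16 (SE, n = 3 and 3, adjusted p = 0.00788), and miR-299* kept its call with the block (-0.96, adjusted p = 0.0235), though not without day 28 replicate 1, 3 or 4 (adjusted p up to 0.0997). Replicate 3 of the uninjured group lay nearest to day 1 for miR-494, miR-376a, miR-154* and miR-188-5p. The same held for miR-1224, at 2.37, 1.60 and 2.10 on the day 1 arrays and 0.29, 0.17 and 1.61 on the uninjured arrays, and for miR-1897-5p, at -3.35, -4.15 and -3.38 on the day 1 arrays and -5.36, -5.79 and -3.74 on the uninjured arrays. It held for 2 that fell as well, miR-140, at 3.09, 2.76 and 3.07 on the day 1 arrays and 3.95, 3.81 and 3.05 on the uninjured arrays, and miR-140*, at 2.65, 2.13 and 2.56 on the day 1 arrays and 3.67, 3.44 and 2.49 on the uninjured arrays. The groups overlapped for these last 4, which differed by 1.34, 1.34, -0.63 and -0.75 (adjusted p = 0.0192, 0.0425, 0.0373 and 0.0366), and each of the calls was lost without single arrays (adjusted p up to 0.192).

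Both day 1 and day 7 lay on slide 1, so their comparison is free of the slide. It called 140 miRNAs (43.3%), 80 higher at day 1 (24.8%) and 60 lower (18.6%). This balance turned with the scaling, to 33 higher and 100 lower with the all-probe percentile and 36 and 104 with the median. With quantile normalization it was 50 and 88, and without scaling 11 and 67. miR-223 was higher at day 1, by 0.93 (adjusted p = 0.00086), and miR-21 lower, with a difference of -0.66 (adjusted p = 0.0267). miR-214, miR-199b*, miR-299, miR-31 and miR-28 were lower at day 1 than at day 7, miR-214 with a difference of -2.51 (adjusted p = 5.51e-07) and miR-199b* with -1.63 (adjusted p = 2.29e-06). miR-193b was higher, by 1.08 (adjusted p = 0.0042). miR-466d-3p and miR-669i were higher as well, by 2.14 and 2.33.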

How the data were processed

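Each of the 16 arrays was 1 single-colour hybridization of labelled RNA from a mouse carotid artery. RNA was isolated with the miRNeasy Mini Kit and labelled with Cy3-pCp, per the labels' protocols. The deposited scanner files hold intensity values per spot (13715 features per array), processed with Agilent Feature Extraction 9.5.1.1, per the file headers, that is, background-subtracted signals not normalized between arrays. The deposited value table was not centred and matched the total gene signal of the scanner files, an intensity on a linear scale. It served as an alternative.

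From the intensities, spots without an outlier flag were averaged per probe, divided by the 75th percentile of the probes detected on all arrays, floored, and taken to log2, and the brightest probe stood for a miRNA. A miRNA was tested when all arrays of at least 1 group detected it, which left 323 of 611. limma 3.58.1 in R 4.3.3 was fitted over all 5 groups, with Benjamini-Hochberg adjustment at 0.05. Slide was a fixed block in a second fit. The steps were tested on simulated data.

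Alternatives were other scalings, normexp background with an offset of 50, other filters, replicate number as a block, and leaving out each array. The groups came from the labels. Where samples of a group are not separate animals, p-values measure technical spread. The smallest exact two-sided p for 3 against 3 is 0.1. Depth has no counterpart on arrays. Named miRNAs were the 12 largest changes per direction among calls without overlap, members of the lists, those called in all 10 fits, other strands of a named hairpin, those detected in 1 group only, and the 10 brightest in uninjured arteries. Other names were picked after their values were seen: miR-10a, miR-148b, miR-152, miR-324-5p, miR-362, miR-532-5p, miR-532-3p, miR-140, miR-140*, miR-30b*, miR-29b*, miR-1224 and miR-1897-5p. The comparison, the lists and the rules were chosen with earlier results of these data known.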

Additional observations from a re-analysis of the deposited data

Results flagged for a closer look

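The day 28 arrays are the group of 4 in which a single outlying array can be tested. In 6 of 83 miRNAs looked at, 1 array stood far from the other 3, relative to the range of the 4. Chance alone marks about 1 in 20 such groups. That rate does not hold for let-7i* and miR-466l, whose other 3 arrays were tied at the floor. let-7i* was -5.78 on replicate 2, just above the floor at which the others lay. miR-18a was -1.82 on replicate 1 and miR-20b was 0.30 on replicate 2. miR-376a was -3.20 and miR-466d-3p -4.80 on replicate 4. miR-466l was -5.77 on that array, also just above the floor.

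The differences from uninjured arteries at day 1 and day 7 differed from each other for 10 of 24 miRNAs in limma, as tested by the contrast of day 1 with day 7. That share is near the 43.3% of all tested miRNAs that this contrast called. The 24 are those with the largest differences in each direction between day 1 and uninjured arrays that did not overlap, and those called in all 10 fits. Both groups lie on slide 1, and the uninjured arteries drop out of that contrast. Higher at day 1 were miR-669i, by 2.33 (adjusted p = 0.00599), miR-466d-3p, by 2.14 (adjusted p = 1.60e-05), miR-193b, by 1.08 (adjusted p = 0.0042), and miR-223, by 0.93 (adjusted p = 0.00086). miR-299 fell furthest short of its day 7 level, with a difference of -2.88 (adjusted p = 4.52e-07). Then followed miR-214 with -2.51 (adjusted p = 5.51e-07), miR-199b* with -1.63 (adjusted p = 2.29e-06), miR-31 with -1.39 (adjusted p = 0.000696), miR-28 with -0.87 (adjusted p = 0.00132) and miR-21 with -0.66 (adjusted p = 0.0267).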

How the results depend on the processing

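Of 2739 alternative values of 83 named and called miRNAs, 1721 kept direction and call, 976 kept the direction only and 42 turned. The direction turned for miR-146a, miR-16, miR-30b, miR-362-3p and miR-98 with the all-probe percentile (-0.029, -0.15, -0.15, -0.039 and -0.11) and with the median (-0.048, -0.17, -0.17, -0.058 and -0.12). It also turned for miR-146a with quantile normalization (-0.12) and for let-7i* with normexp background (-0.036). With the slide block and the all-probe percentile it turned for miR-146a (-0.0063), miR-16 (-0.15), miR-20b (-0.36), miR-219 (-0.36), miR-29b (-0.046), miR-30b (-0.32), miR-362-3p (-0.18) and miR-98 (-0.12). With the block and the median it turned for miR-146a (-0.19), miR-154* (-0.059), miR-16 (-0.34), miR-20b (-0.54), miR-219 (-0.55), miR-221 (-0.047), miR-29b (-0.23), miR-30b (-0.50), miR-362-3p (-0.36), miR-376a (-0.16) and miR-98 (-0.30). With the block and quantile normalization it turned for miR-146a (-0.12), miR-20b (-0.047), miR-219 (-0.53), miR-30b (-0.059), miR-362-3p (-0.12) and miR-376a (-0.040). With the block and without day 28 replicate 1 miR-20b was -0.36, and without replicate 2 let-7d was 0.044, let-7e 0.18, let-7i 0.040 and miR-30a* 0.041, fits added after the data were seen. The cause of these turns was not tested.

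The count of 105 calls (64 higher, 41 lower) became 17 higher and 95 lower with the all-probe percentile, 17 and 103 with the median, and 24 and 71 with quantile normalization. It became 36 (34 and 2) without scaling, 47 (18 higher) with normexp background and 53 (41 and 12) with a log2 difference of at least 1. Among the miRNAs detected on all arrays, fewer by construction, 35 were higher. The slide block gave 32 (26 and 6), and with the block the scalings gave 24 (6 and 18), 66 (7 higher), 28 (9 and 19) and 3 (2 and 1) in the same order. Leaving out 1 array gave 16 to 116 calls, 14 to 80 higher and 2 to 42 lower, the low ends with the block and without day 28 replicate 3 or 4 (16 each, 14 and 2). With the block it was 43 (21 and 22) without day 28 replicate 1 and 28 (24 and 4) without replicate 2. Without the block, the higher calls fell to 38 without day 1 replicate 1, and all calls to 69 (37 higher) without uninjured replicate 2.

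Replicate numbers were not taken as pairs in the main fit. Same-numbered deviations in the 2 groups correlated at -0.29, -0.08 and -0.40. These values were not set against other numberings and cannot settle whether the arrays were paired. With the replicate number as a block 93 were called (55 and 38), and with the replicate and slide blocks together 10 (8 and 2). Within slide 1, day 1 differed from day 28 in 152 miRNAs with the all-probe percentile and 11 without scaling. Within slide 2, uninjured arteries differed from day 28 in 34 with the all-probe percentile, 30 with the median and 12 without scaling. Day 1 against day 7 gave 78 without scaling. The slide effect at day 28 ranged from 0 to 17 calls with 1 array left out. Signals near the background limit the miRNAs given only as a bound.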

Other observations

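Probes against viral miRNAs share the array. Of 39 such miRNAs 3 to 5 were detected on the day 1 arrays and 2 to 3 on the uninjured arrays.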
